A study of Mus musculus with 3 samples.

Results

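The 10 genes of early lymphoid priming that were listed by name were followed across the 7 cell clusters that the authors deposited. They are the cytokine receptors *Flt3* and *Il7r*, the recombination genes *Rag1*, *Rag2* and *Dntt*, the transcription factors *Ebf1* and *Pax5*, and the B-cell receptor genes *Cd79a*, *Cd79b* and *Ighm*. Of these 10 genes, 9 had a row among the 27,994 genes of the count table, and *Ighm* was not analysed here. In all, 957 of 9,562 cells held 2 or more of the 9 genes, where a cell holds a gene if at least 1 of its unique molecular identifiers (UMIs, single captured RNA molecules) is assigned to it.

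Lymphoid priming is the transcription of lymphoid genes, at low level, in progenitors that can still form other blood lineages. *Flt3* and the IL-7 receptor act early, before the RAG proteins cut the antigen receptor genes and before terminal transferase (*Dntt*) adds bases at the joints. *Ebf1* and *Pax5* then set up the B lineage and CD79A and CD79B carry the signal of the finished receptor. Several of these genes are also used outside lymphoid cells, so each was read together with the other genes of the cells that held it.

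The cells came from 12–16-week-old female mice. Heart endothelial cells were sorted as CD31+VE-Cad+ cells that lacked the blood markers CD41 and CD45 and both PDGF receptors, and were either taken fresh (0 h) or aggregated with *Mesp1*-derived PDGFRA+ stromal cells (PSCs) of E11.5 embryos. After 24, 48, 72 or 96 h in medium with 20% serum and 100 ng/ml each of IL-3, SCF and Flt3L, they were sorted again as CD31+VE-Cad+PDGFRA- cells. All times were pooled, 3 such pools (A, B and C) were sequenced, and the files used here give neither a pool nor a time for a cell.

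The table held 252,339,042 UMIs. The 3 library suffixes on the barcodes had 2,097 to 3,958 cells with medians of 13,440.5 to 38,312 UMIs, and 13 barcodes occurred in more than 1 library. Because no suffix can be tied to a pool, all cells were treated as 1 sample and no test was run. Levels are UMIs of a gene per 10,000 UMIs of all cells of a group, with exact 95% Poisson intervals. Shares of cells have exact 95% binomial intervals, and both kinds of interval cover counting error only. Values by library are given in the order of suffixes 1, 2 and 3. Cluster 5 (1,572 cells, median 36,065.5 UMIs) carried granulocyte genes such as *Mpo* together with macrophage genes such as *C1qb*. Its endothelial markers had a summed level of 5.23 (4.43 to 7.12 by library). This sum was 4.32 to 6.53 in clusters 3, 4 and 6 and 38.7 to 54.3 in clusters 0, 1 and 2. Cluster 0 (728 cells) was arterial endothelial-like, cluster 1 (799 cells, median 7,875 UMIs) was led by *Il1a* and *Saa3* over endothelial genes, and cluster 2 (5,396 cells) was endothelial with high *Aplnr*. Cluster 3 (239 cells) was led by *Dppa5a*, cluster 4 (518 cells) was stromal-like and cluster 6 (310 cells) was megakaryocyte-like.

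*Flt3*, the receptor of the Flt3L in the medium, was found almost wholly in cluster 5. This cluster had 351 of the 370 *Flt3* UMIs in the table, in 148 of the 166 holding cells. Its *Flt3* level was 0.0575 (0.0516 to 0.0638), with 0.0735, 0.0505 and 0.0433 in the 3 libraries. The level outside it was at most 0.0014 in any cluster, and the ratio of cluster 5 to all other cells was 57.8-fold (log2 5.85, 5.19 to 6.60; 5.78, 5.61 and 6.16 by library). The other 6 clusters had between 0 and 15 UMIs each and could not be ordered beyond counting error. Cluster 4 had none, which allows a level of up to 0.00253 (3 UMIs). The share of cluster 5 cells with *Flt3* was 9.41% (8.02 to 11.0), against 1 UMI in all 757 cells of clusters 3 and 4, which served as the reference for free RNA and were sequenced to medians of 23,684 and 19,475.5 UMIs. After every cell had been reduced to 5,000 UMIs, 44 cluster 5 cells (2.81%) still held it.

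*Il7r*, which encodes the ligand-binding chain of the IL-7 receptor, was found in 2 clusters. Cluster 5 had 437 of its 564 UMIs in 139 cells, at a level of 0.0715 (0.0650 to 0.0786) with 0.0731, 0.0650 and 0.0741 by library. Cluster 1 had 97 UMIs in 23 cells, and its level of 0.115 (0.0935 to 0.141) was above that of cluster 5 by 0.69 on the log2 scale (0.36 to 1.01). The cluster 1 level spread widely, with 0.118, 0.237 and 0.0263 by library, so that library 3 was below every library of cluster 5. The order of the 2 clusters also turned when cells were weighted equally, with means of 0.0623 in cluster 1 and 0.0904 in cluster 5. No other cluster had more than 21 *Il7r* UMIs, and clusters 0 and 3 had none.

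The *Il7r*-holding cells of cluster 1 were unlike the cluster around them. Of these 23 cells, 87.0% held the macrophage gene *C1qb* and 87.0% the pan-leukocyte gene *Ptprc*, against 7.99% and 3.61% of the other cluster 1 cells. The endothelial cadherin gene *Cdh5* was held by 73.9% against 94.5%. Their median depth was 18,836 UMIs against 7,805. In all, 94 of the 97 *Il7r* UMIs lay in 20 cells that had 2 or more *C1qb* UMIs, and the level of cluster 1 without these cells was 0.0038. These 20 cells were chosen by *Il7r* as well as by *C1qb*, so the lower level follows from the choice. The 23 cells came from all 3 libraries (10, 9 and 4), and none held more than 12 *Il7r* UMIs. The part of captured RNA or of paired cells in this pattern was not tested.

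**Figure D1:**
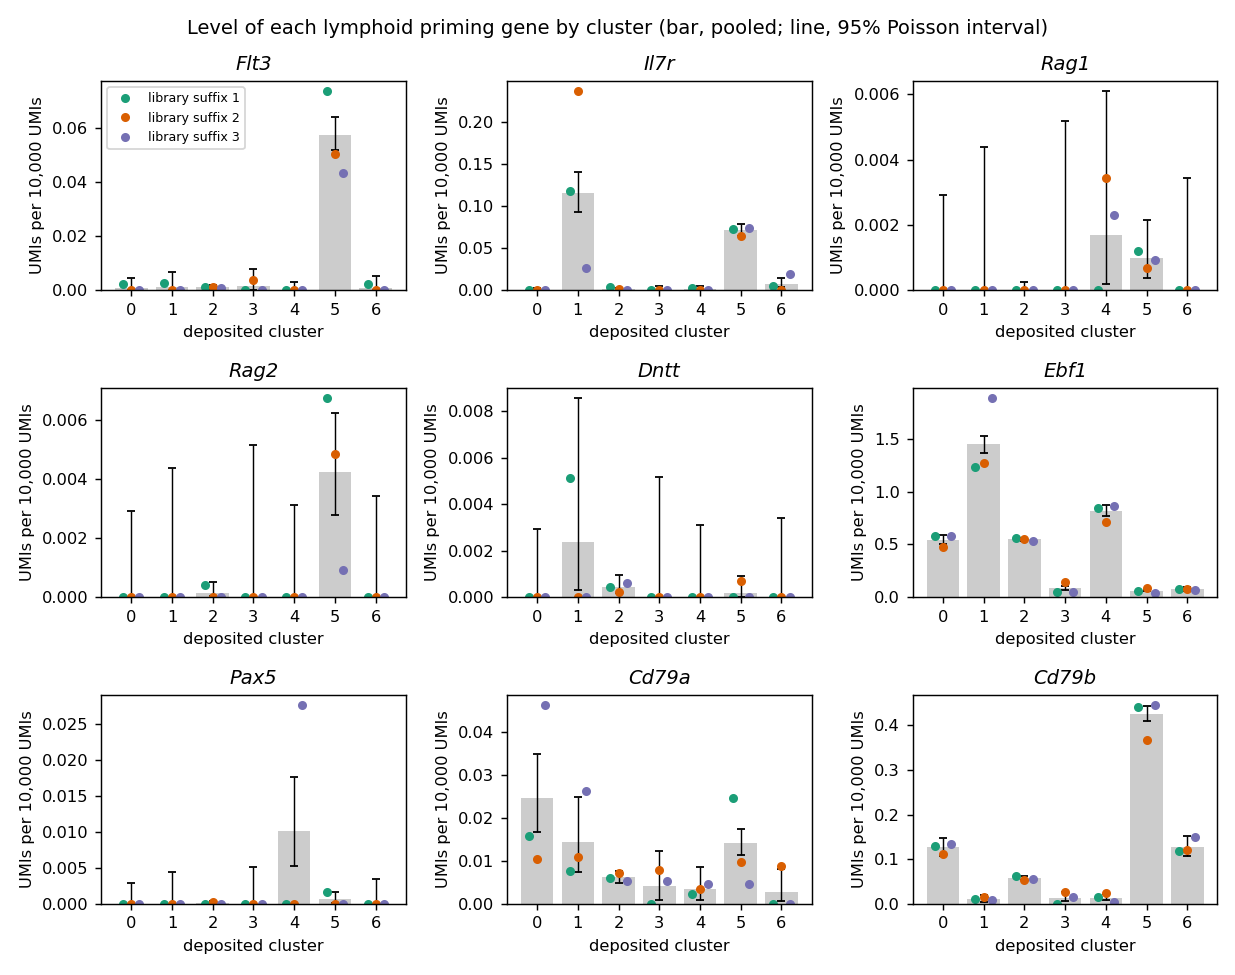
Level of each of the 9 genes (vertical axis, UMIs per 10,000 UMIs, a separate scale per gene) in deposited clusters 0 to 6 (horizontal axis). Grey bars are the sum over all cells of a cluster, black lines the 95% Poisson interval and coloured points the 3 library suffixes. *Flt3* and *Rag2* stand out in cluster 5, at 0.0575 and 0.00426, *Il7r* in clusters 1 and 5, at 0.115 and 0.0715, and *Ebf1* is low in clusters 3, 5 and 6, at 0.0591 to 0.0827.

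The 2 subunits of the V(D)J recombinase were rare. *Rag2* had 28 UMIs in 17 cells, of which 26 UMIs in 15 cells were in cluster 5, at a level of 0.00426 (0.00278 to 0.00624). By library this level was 0.00676, 0.00484 and 0.000932, so that library 3 was lowest. *Rag1* had 8 UMIs in 7 cells, with 6 UMIs in cluster 5 (level 0.000982) and 2 in cluster 4, which do not differ beyond counting error. *Rag1* or *Rag2* was held by 21 cells, 17 of them in cluster 5 (10, 5 and 2 by library).

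The Rag-holding cells of cluster 5 were nearly all *Flt3* cells. Of these 17 cells, 15 held *Flt3* and 11 held both *Flt3* and *Il7r*. All 17 held *Cd34*, a surface protein of blood progenitors and endothelium, and 3 held both *Rag1* and *Rag2*. *Cd34* was frequent in cluster 5 as a whole. It was held by 97.1% of cells with *Flt3* and *Il7r*, 97.5% with *Flt3* only, 88.7% with *Il7r* only and 72.8% with neither. The highest single counts were modest. One cell with 4 *Rag2* UMIs held 1 of *Flt3*, 3 of *Il7r*, 19 of *Cd34* and 15 of *Mpo*. A second, with 2 *Rag1* UMIs, held 20 of *Il7r*, 33 of *Cd34* and 1 of *Mpo*. One cell with 1 UMI each of *Rag1* and *Rag2* held 6 of *Flt3* and 9 of *Il7r*, and also 132 of *C1qb*. None of the 4 Rag-holding cells outside cluster 5 held *Flt3* or *Il7r*, and each of them had 1 Rag UMI.

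The promoters of *Flt3*, *Il7r*, *Rag1* and *Rag2* are given here because the 11 cells held these receptors and recombinase genes together. On GRCm38 (GENCODE M21) *Flt3* lies at chr5:147330741-147400489 and *Il7r* at chr15:9505788-9530176, both on the minus strand. *Rag1* (chr2:101638282-101649501, minus strand) and *Rag2* (chr2:101624718-101632529, plus strand) are neighbours. Of the 10 genes, 8 had an entry among the RefSeq promoter windows (GRCm38.p6), which cover 250 bases before and 50 after an annotated start. Lower case is sequence upstream of the start, 5′ to 3′ on the strand of the gene, and capitals mark matches to a motif on either strand. The motifs were TGTGGT for RUNX factors, CAGGTG for the E box bound by E proteins, GAGGAA for PU.1 and CCCNNGGG for EBF factors. They occur in 16.8%, 20.2%, 28.3% and 13.7% of the 32,851 mouse promoter windows, shares that hold for whole windows of 300 bases, so a match describes the letters and not a bound site.
*Flt3*, chr5:147400490-147400739, minus strand: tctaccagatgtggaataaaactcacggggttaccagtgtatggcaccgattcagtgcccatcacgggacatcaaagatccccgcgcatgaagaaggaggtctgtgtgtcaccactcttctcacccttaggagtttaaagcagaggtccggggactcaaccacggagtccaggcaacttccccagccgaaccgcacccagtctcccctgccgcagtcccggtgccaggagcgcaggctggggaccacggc
*Il7r*, chr15:9529877-9530040, minus strand: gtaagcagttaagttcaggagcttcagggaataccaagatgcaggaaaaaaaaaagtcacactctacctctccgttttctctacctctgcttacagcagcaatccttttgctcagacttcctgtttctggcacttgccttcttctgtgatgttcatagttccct
*Rag1*, chr2:101649533-101649782, minus strand: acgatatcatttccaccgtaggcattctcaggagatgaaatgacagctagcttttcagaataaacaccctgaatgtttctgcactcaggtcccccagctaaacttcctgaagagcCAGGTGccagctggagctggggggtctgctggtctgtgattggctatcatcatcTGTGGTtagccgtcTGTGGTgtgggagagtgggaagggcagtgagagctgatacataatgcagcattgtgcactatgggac
*Rag2*, chr2:101624462-101624711, plus strand: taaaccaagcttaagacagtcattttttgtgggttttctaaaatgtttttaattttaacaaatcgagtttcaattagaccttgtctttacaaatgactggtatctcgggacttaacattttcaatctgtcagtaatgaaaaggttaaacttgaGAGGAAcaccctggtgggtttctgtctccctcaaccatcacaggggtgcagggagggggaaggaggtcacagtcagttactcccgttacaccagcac
The *Il7r* stretch is 164 bases long because the rest of its window overlaps an annotated exon. It lies upstream of the start used here but inside the GENCODE span of the gene, which reaches further upstream. No motif was matched in the stretches of *Flt3* and *Il7r*, while the whole *Il7r* window held 1 RUNX match outside the stretch. The *Rag1* stretch held 2 RUNX matches and 1 E box match, and that of *Rag2* held 1 PU.1 match. No EBF match was found in any of the 4.

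*Dntt*, which acts after Rag in normal lymphopoiesis, was not found with it. It had 9 UMIs in 7 cells, 5 of them in cluster 2 and 1 each in clusters 1 and 5. None of these cells held *Flt3*, *Il7r*, *Rag1* or *Rag2*, and 5 held *Ebf1*. Over all cells *Flt3* was held by 1.74%, *Il7r* by 1.79%, *Rag1* by 0.0732% and *Rag2* by 0.178%. *Ebf1* was held by 46.2% of all cells and 58.5% of cluster 2. With 7 cells, neither an overlap nor a lack of it can be read from these counts. *Dntt* had at most 2 UMIs in a cell.

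*Ebf1*, the factor that starts the B-cell programme and that adipose and stromal cells also use, had the most UMIs of the 9 genes, 11,058 in 4,420 cells, and was low in cluster 5, where *Flt3* was highest. Cluster 1 had the highest level, 1.45 (1.37 to 1.53; 1.23, 1.27 and 1.89 by library), and 61.8% of its cells held the gene. Cluster 4 followed with 0.819 (0.768 to 0.872). Clusters 2 and 0, at 0.547 and 0.545, did not differ beyond counting error. Clusters 3, 6 and 5 were lowest, at 0.0827, 0.0743 and 0.0591, and neighbours in this order were not apart. At 5,000 UMIs per cell the shares were 44.4% in cluster 1, 21.1% to 23.5% in clusters 0, 2 and 4, and 4.53% in each of clusters 5 and 6. The ratio of cluster 5 to the rest was -3.24 on the log2 scale.

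The other genes of *Ebf1*-holding cells were compared with those of their neighbours within clusters. In cluster 5 at 5,000 UMIs, the 71 *Ebf1*-holding cells were compared with the other 1,497, and all 8 listed endothelial genes were at least 2-fold higher (median log2 1.71), where 8.53% of the 10,060 genes tested were. The leading genes were *Akap12*, *Kitl*, *Col4a1*, *Ets1* and *Cldn5*, the last a tight-junction gene of endothelium (2.93 against 0.77 UMIs per 10,000). None of the 4 B-lineage genes tested was 2-fold higher, but the members *Cd79a* and *Cd79b* were, and *Flt3* was at least 2-fold lower, as were 5.77% of all genes tested. Of the 7 dendritic genes tested 4 were higher (*Zbtb46*, *Cd74*, *H2-Aa* and *H2-Ab1*, list median 1.96) and of the 6 T-lineage genes 3 (*Lck*, *Tcf7* and *Gata3*, list median 1.06). The 2 *Pax5*-holding cells of cluster 5, described below, were among the 71. Before the reduction to 5,000 UMIs they held 106 and 67 UMIs of *Cd74*, 32 and 6 of *H2-Aa* and 32 and 19 of *Cd79a*. Their part in these values was not tested. As deposited, the median depth of these 71 cells was 11,747 UMIs against 36,621, and the part of depth or captured RNA in the difference was not tested. In cluster 4 the 113 *Ebf1*-holding cells had more of the neuronal genes *Tubb3* (4.11 against 0.767), *Nefl* and *Nefm* and of the fibroblast gene *Dcn* (5.72 against 1.31). There, 2.84% of 8,545 genes were at least 2-fold higher, and so were 2 of 8 stromal and 2 of 6 pericyte genes tested. In cluster 1 the leading genes of *Ebf1*-holding cells were *Igfbp5* (5.39 against 0.599) and the pericyte gene *Rgs5* (1.37 against 0.295). The lowest were *Wfdc17* (0.266 against 2.74) and the chemokine gene *Ccl9* (0.133 against 1.26).

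*Pax5*, which fixes B-cell identity, was held by only 5 cells. In cluster 4, 2 cells of library 3 held 9 and 3 UMIs together with 21 and 9 of *Ebf1*, without any *Cd79a* or *Cd79b*. The first of them also held 12 UMIs of *Pax2*, 6 of *Pax8* and 15 of the collagen gene *Col1a1*. *Pax2* and *Pax8* are close relatives of *Pax5* with roles in kidney and brain. The other 3 cells, in clusters 5 and 2, held 1 or 2 *Pax5* UMIs each together with *Ebf1*, *Cd79a* and *Cd79b*.

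*Cd79a* and *Cd79b* encode the paired signalling chains of the B-cell receptor, but they were not distributed alike. *Cd79b* had 3,746 UMIs in 1,832 cells. Its level in cluster 5 was 0.426 (0.410 to 0.443; 0.442, 0.368 and 0.447 by library), and 58.2% of cluster 5 cells held it as deposited and 18.6% at 5,000 UMIs. Clusters 6 and 0 followed at 0.128 and 0.126, which did not differ beyond counting error, and cluster 2 at 0.0578. In clusters 3, 4 and 1 the level was 0.0107 to 0.0140, and 3.30% of the cells of clusters 3 and 4, the reference for free RNA, held the gene. *Cd79a* had 225 UMIs in 148 cells. Its level was 0.0246 in cluster 0, 0.0143 in cluster 1 and 0.0141 in cluster 5, which were not apart as neighbours in this order, and in the other 4 clusters it was 0.00279 to 0.00612. Its libraries were far apart in cluster 5, with 0.0246, 0.00968 and 0.00466. Only 39 cells held both genes, and 135 of the 148 cells with *Cd79a* had a single UMI of it.

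A large part of the *Cd79a* signal came from 4 cells. Each had at least 2 UMIs of both chains together with *Ms4a1* or *Pax5*, genes of the B lineage. In cluster 5, 2 cells of library 1 held 32 and 19 UMIs of *Cd79a* and 22 and 17 of *Cd79b*. They also held 11 and 13 of *Ms4a1* (CD20), 22 and 18 of *Ly6d*, and 106 and 67 of *Cd74*. Neither had a UMI of *Cd34*, *Kit*, *Mpo*, *Flt3*, *Il7r*, *Rag1* or *Rag2*. A cluster 0 cell of library 3 held 16 of *Cd79a* and 9 of *Cd79b*, and a cluster 2 cell of library 2 held 3 and 2. With 5,367 to 8,227 UMIs, all 4 cells were among the shallower ones of the table. Together they carried 31.1% of all *Cd79a* UMIs and 59.3% of those in cluster 5, but 1.33% of all *Cd79b* UMIs. Without them the *Cd79a* level was 0.00573 in cluster 5 and 0.0119 in cluster 0.

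**Figure D2:**
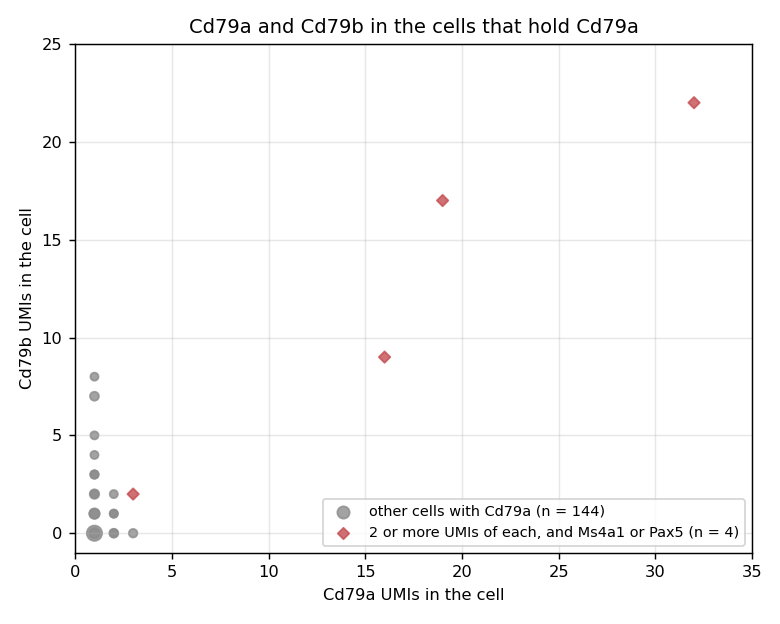
UMIs of *Cd79b* (vertical axis) against UMIs of *Cd79a* (horizontal axis) in the 148 cells that held *Cd79a*, with larger points for more cells at the same values. The 4 cells with at least 2 UMIs of each gene and with *Ms4a1* or *Pax5* (red diamonds) reach 32 and 22 UMIs. Of the other 144 cells (grey), none has more than 3 *Cd79a* UMIs.

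The *Cd79b*-holding cells of cluster 5 were compared with the others in the same way. At 5,000 UMIs per cell, 291 holding cells were set against 1,277 others. The leading genes were *Hpgds*, *Trem2*, *Fcrls*, *C3ar1* and *Ms4a6c*, several of which mark tissue macrophages and microglia, with log2 ratios of 0.92 to 1.07. Only 1.16% of 10,060 genes were at least 2-fold higher. Of the 10 macrophage genes, 1 was (*Adgre1*), with a list median of 0.73 against -0.05 for all genes, and as deposited none of the 10 was (list median 0.87). Of the 4 B-lineage genes tested, *Blnk*, an adaptor of receptor signalling, and *Bank1* were at least 2-fold higher (list median 0.76), as were the members *Ebf1* and *Cd79a*. The 2 *Pax5*-holding cells of cluster 5 were among the 291. They had 32 and 19 *Cd79a* UMIs and 3 and 5 of *Ebf1* as deposited, and their part was not tested. All 8 erythroid genes and 7 of 12 granulocyte genes were at least 2-fold lower, where 3.69% of all genes tested were. The summed erythroid level of cluster 5 as deposited was 14.1, but 1.26 to 23.0 by library. At 20,000 UMIs per cell, 76.7% of *Cd79b*-holding cells had *Csf1r*, the receptor of macrophage colony-stimulating factor, against 46.4% of the others. *C1qb* was held by 62.5% against 37.1%, and *Kit* by 22.7% against 43.2%.

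Holding 2 or more of the 9 genes was most frequent in cluster 5, but much of it rested on *Ebf1* and on depth. The 957 cells were 10.0% of all cells (9.41 to 10.6). They were 288 cells of cluster 5 (18.3%, 16.4 to 20.3; 21.6%, 10.7% and 27.3% by library), 559 of cluster 2 (10.4%), 64 of cluster 0 (8.79%), 24 of cluster 1 (3.0%), 11 of cluster 4 (2.12%), 8 of cluster 6 (2.58%) and 3 of cluster 3 (1.26%). The pair *Ebf1* and *Cd79b* was held by 683 of the 957 cells, 493 of them in cluster 2. Without *Ebf1*, 222 cells remained (2.32%), and 197 of these were in cluster 5 (12.5%, 10.9 to 14.3), against 14 in cluster 2 and 7 in cluster 0. Many of the 197 held *Cd79b*, a gene found in 58.2% of cluster 5 cells. In that cluster it was held with *Flt3* by 106 cells, with *Il7r* by 100 and with *Cd79a* by 23. The pair *Flt3* and *Il7r* was held by 68. A cell can count in several of these pairs. Cells with 2 or more genes were deeper than the rest, with medians of 35,712 against 19,741 UMIs over all clusters and 46,314.5 against 33,530.5 in cluster 5. At 5,000 UMIs per cell, 134 cells (1.41%) held 2 or more, with 46 in cluster 5 (2.93%), 63 in cluster 2 and 17 in cluster 0 (2.35%). Of the 33 such cells that remained without *Ebf1*, 28 were in cluster 5 (1.79%). At least 3 genes were held by 94 cells, 77 of them in cluster 5, and 4 or more by 20 cells, of which 19 were in cluster 5.

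**Figure D3:**
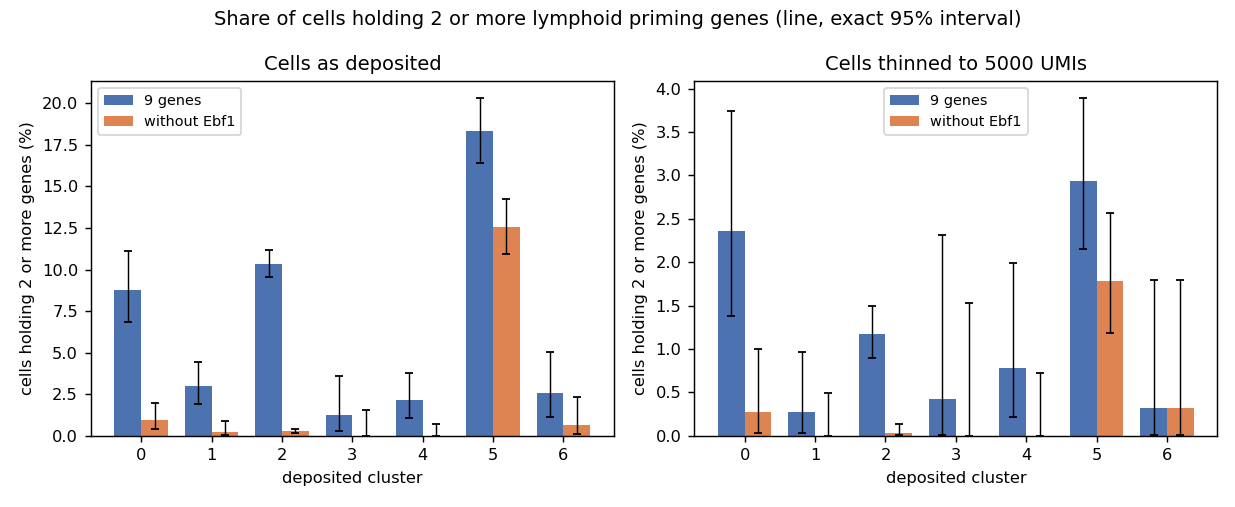
Share of cells in per cent (vertical axis) that held 2 or more of the 9 genes, by deposited cluster (horizontal axis), with all 9 genes (blue) and without *Ebf1* (orange). Lines are exact 95% intervals, the left panel shows cells as deposited and the right panel cells reduced to 5,000 UMIs. Cluster 5 is highest in both panels, at 18.3% and 2.93%. In the right panel its interval overlaps that of cluster 0, and without *Ebf1* it is at 1.79% with every other cluster at 0.324% or less.

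*Flt3* and *Il7r* were held together by 68 cells, all in cluster 5 (32, 11 and 25 by library). Among the 148 *Flt3* cells of that cluster 45.9% (37.7 to 54.3) held *Il7r*, against 4.99% of the other 1,424. The difference remained when all cells had the same depth. At 20,000 UMIs, a depth that left 1,121 of the 1,572 cells and was chosen after seeing the data, *Il7r* was held by 37.1% of 89 *Flt3* cells (27.1 to 48.0) and by 4.94% of 1,032 others. This share was 37.0%, 38.9% and 36.0% in the 3 libraries. *Rag2* was held by 8.99% of the *Flt3* cells and 0.194% of the others. By contrast *Cd79b* was held by 48.3% and 47.0% and *Ebf1* by 8.99% (3.96 to 16.9) and 5.91% (4.55 to 7.53), with intervals that overlap.

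The *Flt3* cells of cluster 5 had more of several progenitor genes and less of the genes of mature myeloid cells. At 20,000 UMIs, *Cd34* was held by 98.9% of them against 63.6% of the others, the stem-cell factor receptor gene *Kit* by 52.8% against 31.9%, and the progenitor transcription factor genes *Hoxa9* and *Hlf* by 46.1% against 12.6% and 39.3% against 10.1%. *Bcl11a*, a factor needed for early B-cell development, was held by 89.9% against 40.1%. *Cd27* was at 33.7% against 5.52%, and *Ccr7*, a chemokine receptor gene of lymphoid and dendritic cells, at 13.5% against 0.388%. *Mpo* was held by more of them (57.3% against 37.7%), but its level as deposited was lower, at 1.77 against 3.32 UMIs per 10,000. The later granulocyte gene *Elane* was held by none of the 89 cells, which allows a share of up to 3.37% (3 cells), and by 6.2% of the others. *C1qb* was held by 19.1% against 51.6% and the platelet gene *Pf4* by 20.2% against 42.2%. The directions of these shares for *Cd34*, *Hoxa9*, *Hlf*, *Bcl11a*, *Cd27*, *Ccr7*, *Mpo* and *C1qb* were found in all 3 libraries.

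**Figure D4:**
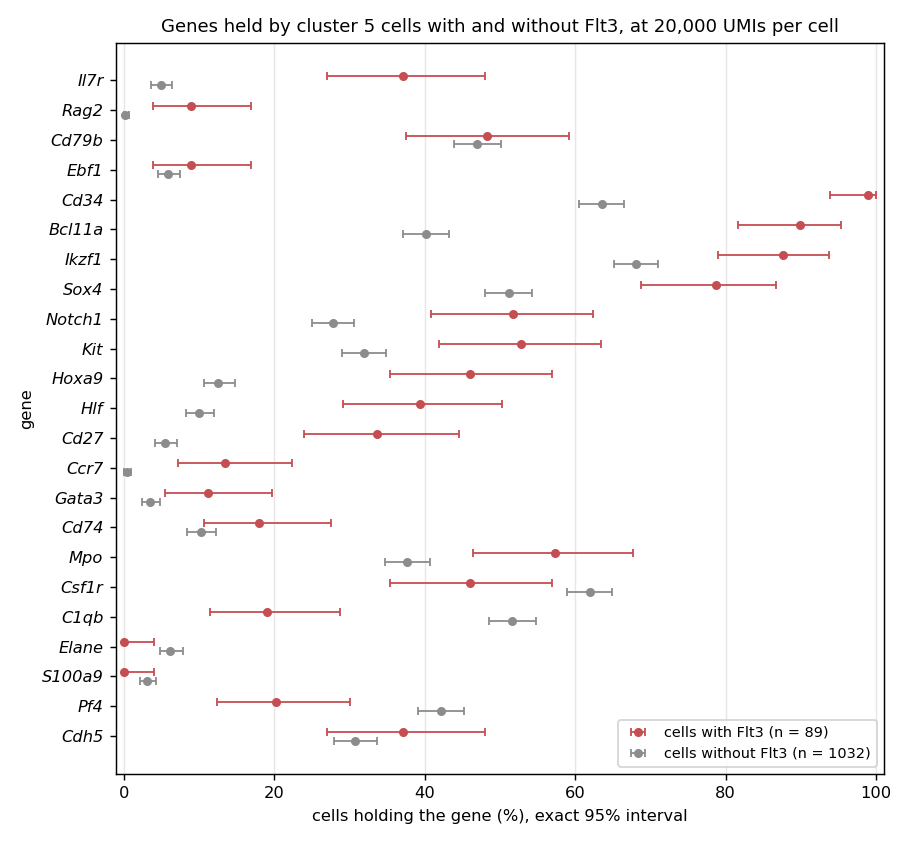
Share of cluster 5 cells in per cent (horizontal axis) that held each gene (vertical axis), for 89 cells with *Flt3* (red) and 1,032 cells without it (grey), all reduced to 20,000 UMIs, with exact 95% intervals. *Il7r*, *Rag2*, *Bcl11a*, *Hoxa9*, *Hlf*, *Cd27* and *Ccr7* lie further right in *Flt3* cells and *C1qb* and *Pf4* further left, whereas the intervals of *Cd79b* and *Ebf1* overlap.

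Over all genes as deposited, 3.47% of 12,714 genes were at least 2-fold higher and 6.41% at least 2-fold lower in *Flt3*-holding than in other cells of cluster 5, whose median depths were 41,734 and 35,354.5 UMIs. Of the 18 early lymphoid transcription factors tested, 6 were higher and 2 lower, with a median of 0.54 on the log2 scale against 0.01 for all genes. The higher ones were *Bcl11a* (1.52 against 0.506 UMIs per 10,000), *Sox4* (2.01 against 0.809), *Satb1* (0.438 against 0.123), *Runx3* (0.326 against 0.0793), *Notch1* (0.490 against 0.223) and *Irf4* (19 against 12 UMIs). *Id3*, an inhibitor of E proteins, was lower (0.494 against 1.09), as was *Lef1*. Of 13 multipotent progenitor genes 4 were higher (*Cd34*, *Slamf1*, *Hlf* and *Hoxa9*) and none lower. Of 9 T-lineage genes 5 were higher, among them *Cd27* (0.244 against 0.0314) and *Gata3* (0.0546 against 0.0235), and of 11 dendritic genes also 5, among them *Cd74* (0.761 against 0.176) and *Ccr7* (0.118 against 0.00202). In the B-lineage list only *Ms4a1* and *Cd37* of 7 genes were higher, and none of the 9 receptor signalling genes was. Lower were 9 of 13 granulocyte genes (median -3.58), 8 of 10 macrophage genes (median -1.59), 5 of 6 mast-cell and basophil genes (median -1.55) and all 8 erythroid genes (median -5.21). The erythroid genes of cluster 5 differed widely between libraries, with a summed level of 14.1 (1.26 to 23.0 by library). Of the mast-cell and basophil genes, *Mcpt8* had 296 UMIs in 2 cells with *Il7r* but not *Flt3*, and 14 in 5 cells with neither gene. None of the 8 endothelial genes differed 2-fold. Among genes of at least 1 UMI per 10,000, the highest ratios belonged to *Gimap1* (log2 1.76) and *Gimap6* (1.73), GTPases of lymphocytes, followed by *Bcl11a* (1.59), *Dnmt3b* (1.48) and *Lsp1* (1.44).

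The *Il7r*-holding cells of cluster 5 were set against the others in the same way. They share 68 cells with the *Flt3*-holding ones, and the 2 groups were not compared with each other. Here 3.43% of the 12,714 genes were at least 2-fold higher and 4.24% at least 2-fold lower as deposited, with median depths of 40,986 UMIs in holding cells and 35,456 in the others. The 18 early lymphoid transcription factors had 6 higher and none lower, and 8 of 9 T-lineage genes were higher, among them *Cd3g* (0.0760 against 0.0122) and *Cd27* (0.160 against 0.0424). Of 7 B-lineage genes *Ms4a1*, *Blnk* and *Cd72* were higher. Granulocyte genes were lower in 11 of 13 cases and macrophage genes in 1 of 10. Of 11 dendritic genes 3 were higher and 2 lower (median -0.32), and of 6 mast-cell and basophil genes 4 were higher and 2 lower (median 2.29). In this last list, the 296 *Mcpt8* UMIs of *Il7r*-holding cells all lay in 2 cells. *Cpa3* was held by 2 of the cells that also held *Flt3* and by 5 of those that did not. At 20,000 UMIs *C1qb* was held by 32.1% of *Il7r* cells and 50.4% of the others, *Bcl11a* by 72.6% and 41.8%, and *Mpo* by 39.3% and 39.2%, whereas the *Mpo* level as deposited was 1.17 against 3.38 UMIs per 10,000.

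Cluster 5 was therefore divided into cells with both receptors (68), *Flt3* only (80), *Il7r* only (71) and neither (1,353), a division made on the values themselves and given as description. *Cd34* was at 3.70 UMIs per 10,000 in cells with both and at 3.89 in those with *Flt3* only, against 2.41 with *Il7r* only and 1.60 with neither. *Hoxa9* was at 0.585 and 0.903 in the *Flt3* groups and at 0.118 and 0.126 in the groups without *Flt3*. *Ccr7* was highest with both receptors (0.180, held by 22.1% of cells), lower with *Flt3* only (0.0529) and *Il7r* only (0.0321) and nearly absent with neither (0.000387). *C1qb* was at 1.80 and 1.96 with *Flt3* but at 7.66 with *Il7r* only, close to the 7.60 of cells with neither. *Mpo* was at 2.35 with *Flt3* only, at 1.23 with both and at 1.10 with *Il7r* only, all below the 3.44 of cells with neither. In the *Il7r* only group *Gzmb* reached 2.95 and *Mcpt8* reached 1.06, and each was held by 2 cells of the group.

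**Figure D5:**
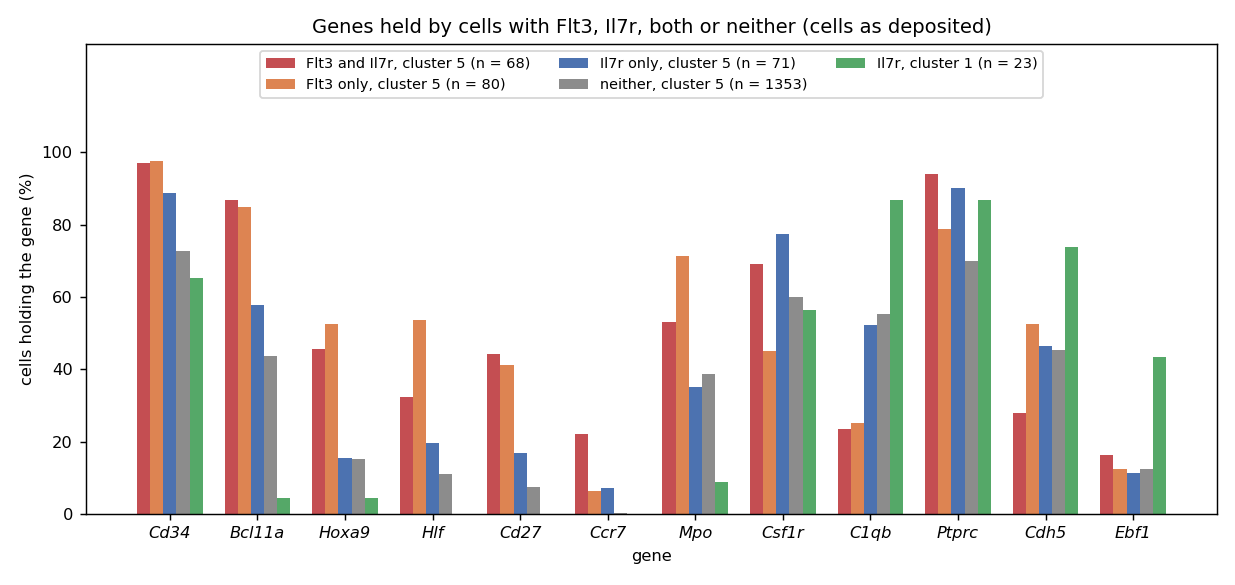
Share of cells in per cent (vertical axis) that held each of 12 genes (horizontal axis) in cluster 5 cells with *Flt3* and *Il7r* (68), *Flt3* only (80), *Il7r* only (71) or neither (1,353) and in the 23 *Il7r*-holding cells of cluster 1, as deposited. *Hoxa9*, *Hlf* and *Cd27* are frequent in both *Flt3* groups, and *Ccr7* is most frequent with both receptors, at 22.1%. The cluster 1 cells combine *C1qb* and *Ptprc* (87.0% each) with *Cdh5* (73.9%).

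The place of the receptors between the granulocyte and macrophage sides of cluster 5 was described by splitting its cells at 2 UMIs of *Mpo* or *C1qb* per 5,000. This gave 246 cells with *Mpo*, 655 with *C1qb*, 10 with both and 657 with neither, and close to the boundary lay 128 cells at 1 and 59 at 2 UMIs of *Mpo* and 63 at 1 and 43 at 2 of *C1qb*. *Flt3* was highest in cells with neither, at 0.0963 (0.0845 to 0.109), lower in *Mpo* cells at 0.0711 (0.0565 to 0.0884) and lowest in *C1qb* cells at 0.0123 (0.00828 to 0.0175). The intervals of the first pair overlap, and in library 2 their order was turned, with 0.0842 in *Mpo* cells and 0.0763 in cells with neither. *Il7r* was at 0.111, 0.0694 and 0.0331 in these groups, but in library 3 it was lower in *Mpo* cells (0.0290) than in *C1qb* cells (0.0502). *Rag2* was at 0.00521, 0.00966 and 0.000818 in these 3 groups. *Cd79b* ran the other way, from 0.272 in cells with neither to 0.426 in *Mpo* cells and 0.583 in *C1qb* cells. *Cd34* was at 2.44 and 2.56 in cells with neither and with *Mpo*, against 0.989 in *C1qb* cells. In *Mpo* cells of library 3 *Flt3* was at 0.0339, below the 0.0966 and 0.0842 of libraries 1 and 2.

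Against all other cells, 9.98% of the 15,915 genes with at least 30 UMIs were at least 2-fold higher and 29.2% at least 2-fold lower in cluster 5, and 3 of the 5 members tested were (*Flt3*, *Il7r* and *Cd79b*), while *Ebf1* was lower. *Rag1*, *Rag2*, *Dntt* and *Pax5* were under this minimum. *Flt3* met it only through cluster 5, with 351 UMIs there and 19 in all other cells. The clusters were made from these same cells, so these counts are a description. The partner genes differed by role. Of 19 early lymphoid transcription factors, 9 were higher and 8 lower (median 0.63 against -0.23 for all genes), the higher ones including *Ikzf1* (0.684 in cluster 5), *Spi1* (3.38) and *Irf8* (1.21). Of the 9 genes that signal below the B-cell receptor and related receptors 8 were higher (median 2.47), a list that myeloid cells share. Of 9 B-lineage genes *Ms4a1*, *Blnk*, *Cd37* and *Bank1* were higher and 1 was lower. Only 8 UMIs of *Vpreb3* and 9 of *Igll1* were found in the whole table. Of 12 recombination and end-joining partners 1 was higher, *Dclre1c* (Artemis, 0.180), and 2 were lower. The lists of mature myeloid cells stood further apart, with all 13 granulocyte genes (median 7.02) and all 10 macrophage genes (median 5.60) higher. Of 10 genes of natural killer and innate lymphoid cells 8 were higher (median 4.39), of 11 dendritic genes 7 were higher and 2 lower (median 2.45), and of 13 T-lineage genes 4 were higher and 7 lower (median -1.0). In the natural killer list, *Gzmb* lay in few cells of cluster 5. It had 826 UMIs in 2 *Il7r* only cells, 507 in 5 cells with neither receptor and 3 in 1 *Flt3* only cell.

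In cluster 1, where 20.0% of genes were at least 2-fold higher, *Ebf1* and *Il7r* were too. The *Il7r* ratio of log2 2.59 was 2.37, 4.08 and 0.43 by library, so that library 3 was under that fold. Of the 97 *Il7r* UMIs of the cluster, 94 lay in the 20 *Il7r*-holding cells that had 2 or more *C1qb* UMIs. Also at least 2-fold higher were 10 of 13 cytokine receptor partners and ligands (median 1.72). They included *Il2rg*, the shared chain that pairs with the IL-7 receptor (0.569), *Crlf2*, its partner in the TSLP receptor (0.968), and the ligand gene *Kitl* (4.25). *Il7* itself had 53 UMIs in the table, 14 of them in cluster 1. In the other clusters the background of genes at least 2-fold higher was 9.78% (cluster 0), 5.99% (cluster 2), 15.6% (cluster 3), 21.2% (cluster 4) and 8.48% (cluster 6). Of these, cluster 0 had 1 member past that fold, *Cd79a*, and 16 of its 31 UMIs there lay in 1 cell. None of the 5 members with at least 30 UMIs was past it in clusters 2, 3, 4 and 6. Below that minimum, *Pax5* had 12 of its 17 UMIs in cluster 4, all in 2 cells of library 3.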

How the data were processed

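The authors aligned 10x 3′ v3 reads to mm10 with Cell Ranger 3.1.0, merged libraries under its batch correction and deposited whole-number UMI counts for each gene and cell. Their deposited normalized table is the natural log of 1 plus counts per 10,000 (recomputed to within 6.22e-15). The deposited UMAP score columns were not used. Cluster numbers are the authors' Leiden clusters. The annotation is not given in the sources used here, and 27,645 of 27,998 identifiers were named from GENCODE M21. The methods state a minimum of 5,000 UMIs, and 90 cells lay below it. Scrublet marked 8 cells (0.0837%), too few to have worked, so doublets were not removed. Some items of the study are not reported here.

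Members and gene lists were chosen with earlier results of these data known. Cells with and without a gene were compared by summed UMIs, with exact conditional intervals, at 5,000 UMIs (seed 1) where at least 50 cells held it. Only 44 and 45 cells held *Flt3* and *Il7r* at that depth, so those 2 splits used cells as deposited, a change from the plan. Genes with 0 UMIs were set to a bound of 3 counts. Named genes are the members, listed genes and, in each split, the 5 most extreme of at least 1 UMI per 10,000 with 1 direction in every library. Single cells were named after their values were seen. Procedures were tested on simulated data. Alternatives left out libraries, shallow cells or doublet calls and changed thresholds. Python 3.11.15, scipy 1.17.1 and scanpy 1.11.5 were used.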

Additional observations from a re-analysis of the deposited data

How the results depend on the processing

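Of 362 alternatives to 63 values, 206 kept the value within its spread, 156 moved it further and 0 reversed it. A reversal could be counted only on leaving out a library, for members past 2-fold between cluster 5 and the rest. *Cd79a*, at log2 0.95 (2.05, 0.38 and -0.87 by library), was under that fold. The order of clusters 1 and 5 in *Il7r*, which turned when cells were weighted equally, was not among the values counted. Leaving out 1 library at a time gave a *Flt3* level in cluster 5 of 0.0462 to 0.0651, a share of *Flt3* cells of 8.03% to 12.6%, an *Il7r* level in cluster 1 of 0.0808 to 0.157, an *Ebf1* level in cluster 1 of 1.24 to 1.64, a *Cd79b* level in cluster 5 of 0.415 to 0.444, a share of *Cd79b* cells of 53.0% to 69.9%, a share of cluster 5 cells with 2 or more genes of 16.0% to 23.6% (all cells, 8.43% to 12.5%) and a *Flt3* level in cells with neither *Mpo* nor *C1qb* of 0.0771 to 0.106. The shares followed the threshold. Above 0.5 counts per 10,000 they were 4.07% (*Flt3*), 32.3% (*Cd79b*), 6.17% (2 or more, cluster 5) and 3.04% (2 or more, all cells), and above 1 count per 10,000 they were 1.91% (*Flt3*) and 14.7% (*Cd79b*). At 5,000 UMIs they were 2.81%, 18.6%, 2.93% and 1.41%. With 2 UMIs of each gene required, cells with 2 or more were 7.32% of cluster 5 and 2.13% of all, and without *Ebf1* 12.5% and 2.32%. As means over cells, from raw or deposited normalized values, *Il7r* in cluster 1 was 0.0623, *Ebf1* in cluster 1 was 1.73 and *Cd79b* in cluster 5 was 0.473. Among alternatives chosen after seeing the data, the *Il7r* level in cluster 1 was 0.0756 without its 3 highest cells. It was 0.0038 without its *Il7r*-holding cells of 2 or more *C1qb* UMIs, which were chosen by *Il7r* itself. The share of *Flt3* cells with *Il7r*, in another such alternative, was 37.1% at 20,000 UMIs. The 1,588 genes at least 2-fold higher in cluster 5 became 4,119 with a minimum of 1 UMI, 1,039 with 300 UMIs and 857 at 4-fold. The 19 genes of at least 1 UMI per 10,000 that were 2-fold higher in *Flt3* cells became 137 at 0.1 UMI and 39 at 5,000 UMIs.

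The depth limits the statements on *Rag1*, *Dntt* and *Pax5*, whose 8, 9 and 17 UMIs lay in 7, 7 and 5 cells. No paired analysis was possible because all samples form 1 group, no suffix can be tied to a pool and no test was run. Time in culture and cluster cannot be told apart.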

Other observations

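Across the 21 sums of cluster and library, the genes whose log2 levels were most like each member were, by Pearson's r over 13,975 genes, *BC100530* (0.991), *Elane* (0.983) and *Adgre4* (0.982) for *Flt3*, and *B430306N03Rik* (0.964), *Pilrb2* (0.963) and *Ptgs2os2* (0.962) for *Il7r*. For *Ebf1* they were *Rnf146* (0.983), *Tmem65* (0.982) and *Nfib* (0.980), for *Cd79b* *Dnmt3b* (0.915), *Ltb* (0.909) and *Relt* (0.896), and for *Cd79a* *Adgre5* (0.733), *Entpd1* (0.731) and *Arhgef1* (0.722). The points share clusters and libraries, so these values are descriptions. They used an offset of 0.01 UMIs per 10,000, added before the log. With 0.1 instead, the gene with the highest r changed for 4 members and stayed the same for 1. For *Flt3* the leading genes were then *Prss57* (0.995), *BC100530* (0.995) and *Fcrl1* (0.990). *Elane* was close to *Flt3* over clusters at the offset of 0.01, but was held by 2.70% of the *Flt3* cells of cluster 5, against 7.51% of its other cells.

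Of the B-lineage genes outside the members, *Blnk* was highest in cluster 3 (0.376), *Cd37* in clusters 5 and 6 (0.228 and 0.221), *Bank1* in cluster 5 (0.182), *Cd24a* in cluster 4 (3.30) and *Vpreb1* in cluster 0 (0.0461, 55 cells with 58 UMIs).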
